A study of Homo sapiens with 4 samples.

Results

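Genes for pre-mRNA splicing factors and for the kinases and cyclins that act on SR proteins were described in MEG-01, an established human line of megakaryoblasts, the precursors of platelet-forming cells; the line is labelled as producing platelet-like particles. The genes were the protein-coding entries of the authors' deposited table whose names begin with SF3B, SRSF or LUC7L, or are CLK1 to CLK4, CCNL1 or CCNL2. They were 4 of the 426 genes in that table: SF3B1, SRSF10, CLK4 and CCNL2. GENCODE release 29 has 27 protein-coding genes with such names, namely 6 SF3B, 12 SRSF, 3 LUC7L, 4 CLK and 2 CCNL genes, and the other 23 were not analysed here. The table holds genes that the authors called as changed, with a highest adjusted p of 0.0497, so the 4 genes were chosen by the same contrast that is described below, and their differences are a description and not a test.

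Total RNA was sequenced in 4 libraries. The OGT-depleted group had 2 libraries (genotype OGT depletion, titled CR_OGT), in which OGT was knocked down with CRISPR/Cas9, and the WT group had 2 libraries. OGT is the transferase that modifies serines and threonines of proteins in nucleus and cytosol with the sugar O-GlcNAc. All 4 libraries are labelled as MEG-01 grown in RPMI1640 with 10% FBS. The labels state no guide, clone or separate culture, so the spread between libraries may be technical only. Counted reads were 19883586 and 18849449 in the OGT-depleted libraries and 18265260 and 17643474 in the WT libraries. OGT itself, the check of the label, had 9124 and 12185 normalized counts in OGT-depleted cells, against 16012 and 19190 in WT cells. Its mean was 60.5% of WT, and each OGT-depleted library was at 47.5% to 76.1% of each WT library. OGT is in the table because it was called in this contrast, so the separation of its groups is no test. These are RNA levels, and OGT protein is not measured in these libraries. Of 16 megakaryocyte markers, TUBB1 and F2R were in the table, with summed normalized counts of 2008 to 2026 in OGT-depleted cells and 2546 to 2626 in WT cells. TUBB1 was higher, at 229% of WT, and the more abundant F2R lower, at 69.9%. The embryonic globin HBE1, the table's entry among 12 erythroid markers, had 2563 to 3349 in OGT-depleted cells and 748 to 1034 in WT cells. The 4 entries among 7 mast cell and basophil markers summed to 3454 to 3983 in OGT-depleted cells and 4633 to 5696 in WT cells. That sum follows the abundant FCER1A (60.8% of WT), while TPSAB1, TPSB2 and CPA3 were higher, at 386%, 321% and 229% of WT. The part of these markers in the results was not tested. In RNA from a whole culture, fewer cells of a type and less RNA per cell cannot be told apart.

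Splicing removes introns in steps that begin with recognition of the 5′ splice site by U1 snRNP and of the branch site by U2 snRNP. SR proteins, which carry stretches rich in arginine and serine, bind exons and recruit both, and their activity depends on phosphorylation of those serines by kinases of the SRPK and CLK families. SF3B1 is the U2 snRNP subunit that holds the branch site, and it is recurrently mutated in myelodysplastic syndromes. SRSF10 is an atypical SR protein that acts as a splicing repressor when dephosphorylated, as after heat shock. CLK4 is a nuclear dual-specificity kinase that phosphorylates SR proteins, and CCNL2 is cyclin L2, a partner of CDK11 kinases with an arginine- and serine-rich region of its own. Transcripts of OGT and of the gene for OGA, which removes O-GlcNAc, are known to retain introns to a degree that depends on the O-GlcNAc level of the cell.

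The upstream promoter sequences are shown because the 4 genes were all lower after OGT depletion. Each is the 250 bases before the RefSeq start (GRCh38.p14), 5′ to 3′ on the strand of the gene, which is the minus strand for all 4. They are chr2:197435029-197435278 for SF3B1, chr1:23980328-23980577 for SRSF10, chr5:178627051-178627300 for CLK4 and chr1:1399336-1399585 for CCNL2. Capitals mark matches to 7 motifs searched on both strands. These were the CCAAT box, the GC box GGGCGG, the TATA box TATAAA, the E-box CACGTG, the ETS core CCGGAA, the cAMP element TGACGTCA and the YY1 motif AAGATGGCG.
SF3B1: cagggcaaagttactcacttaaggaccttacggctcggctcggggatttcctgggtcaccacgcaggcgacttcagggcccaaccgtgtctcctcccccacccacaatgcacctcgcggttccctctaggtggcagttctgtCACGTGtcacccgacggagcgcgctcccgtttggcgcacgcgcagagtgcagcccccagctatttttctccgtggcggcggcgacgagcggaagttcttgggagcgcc
SRSF10: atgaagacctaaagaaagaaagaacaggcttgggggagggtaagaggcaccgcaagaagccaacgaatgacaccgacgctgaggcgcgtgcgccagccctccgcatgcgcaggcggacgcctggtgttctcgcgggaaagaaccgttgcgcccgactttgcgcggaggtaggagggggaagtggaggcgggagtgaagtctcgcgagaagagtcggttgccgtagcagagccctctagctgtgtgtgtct
CLK4: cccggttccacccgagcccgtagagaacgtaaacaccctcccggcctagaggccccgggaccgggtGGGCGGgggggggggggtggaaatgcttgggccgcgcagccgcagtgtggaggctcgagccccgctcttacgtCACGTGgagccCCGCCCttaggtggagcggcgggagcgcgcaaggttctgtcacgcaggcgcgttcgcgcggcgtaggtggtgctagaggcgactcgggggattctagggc
CCNL2: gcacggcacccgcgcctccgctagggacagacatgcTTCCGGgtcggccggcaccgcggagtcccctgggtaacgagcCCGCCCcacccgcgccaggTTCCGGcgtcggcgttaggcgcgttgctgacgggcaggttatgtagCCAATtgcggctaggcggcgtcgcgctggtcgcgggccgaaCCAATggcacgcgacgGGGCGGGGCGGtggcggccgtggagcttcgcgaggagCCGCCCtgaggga

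No motif was found in all 4 windows. The E-box CACGTG stood at 108 to 103 bases before the start of SF3B1 and at 111 to 106 bases before the start of CLK4. Of the 27305 RefSeq promoter windows of that length, 6.49% hold it. The E-box contains a CG pair, and the SF3B1 and CLK4 windows had 24 and 29 such pairs. The median was 11 over all windows and 19.5 over the lower genes, so the share over all windows is not a matched base. GC boxes were found in CLK4 (2) and CCNL2 (4, of which a pair shares 1 base), against 42.3% of all windows. CCNL2 also held 2 CCAAT boxes (33.0% of windows) and 2 ETS cores (14.8%), and SRSF10 held none of the motifs. TATAAA, present in 11.1% of windows, was in none of the 4, nor were the cAMP element (1.77%) and the YY1 motif (0.64%). G and C made up 64.0% of the SF3B1 window, 61.2% of SRSF10, 71.2% of CLK4 and 73.6% of CCNL2, against a median of 64.6% over the 122 lower genes of the table with a window and 58.0% over all windows. Such matches describe the letters of these windows and say nothing of binding.

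All 4 genes were lower after OGT depletion, with no overlap of the groups, at means of 61.1% to 71.0% of WT. The authors' deposited table called 178 genes lower, 1.35% of an estimated 13154 tested, and the 4 genes are among them by the way they were chosen. A refit with edgeR's quasi-likelihood test, adjusted over those 13154 genes, called 136 genes lower, 1.03%, and the same 4 among them. Over the 178 lower genes the median was 64.6% of WT with a range of 32.9% to 73.7%, so the 4 genes lay within that range. In all 426 genes of the table the groups did not overlap, so this separation follows from how the table was selected.

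SF3B1 (ENSG00000115524, chromosome 2, 198256698 to 198299815, minus strand, hg19) had the most reads of the 426 genes in WT. Its normalized counts, the read counts divided by the size factor of each library, were 29144 and 31428 in OGT-depleted cells, against 49568 and 49556 in WT cells. Both OGT-depleted values lay at least 18128 below the lower WT value, and the WT libraries differed by 0.024% of their mean while the OGT-depleted libraries differed by 7.54%. The mean in OGT-depleted cells was 61.1% of WT, or -0.71 ± 0.13 (SE) as a log2 fold change over 2 libraries a group. Each OGT-depleted library was at 58.8% to 63.4% of each WT library. The authors' deposited table gives SF3B1 a log2 fold change of -0.65 and an adjusted p of 4.54e-06, which ranks 38 of 426. That fold change is smaller in size than the -0.71 above. How the authors estimated it is not given, so the values may be unlike measures. RefSeq has 1 snoRNA gene that overlaps SF3B1, and reads of the overlapping genes are not separated here.

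SRSF10 (ENSG00000188529, chromosome 1, 24291294 to 24307417, minus strand, hg19) had the smallest difference of the 4. Its normalized counts were 6532 and 6755 in OGT-depleted cells, against 9463 and 9261 in WT cells. The groups were separated by 2505 normalized counts, and replicates differed by 3.37% of their mean in OGT-depleted cells and by 2.16% in WT cells. The mean was 71.0% of WT, or -0.49 ± 0.12 (SE) as a log2 fold change over 2 libraries a group. Its adjusted p in the authors' deposited table, 0.00601, is the nearest of the 4 to the threshold; genes past the threshold were not analysed here. RefSeq names the pseudogenes SRSF10P1 and SRSF10P2, so the assignment of reads between SRSF10 and these copies is uncertain.

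CLK4 (ENSG00000113240, chromosome 5, 178029665 to 178057616, minus strand, hg19) was the least abundant of the 4. It had 932 and 890 normalized counts in OGT-depleted cells, against 1505 and 1320 in WT cells. The gap between the groups was 388 normalized counts, and the WT libraries differed by 13.1% of their mean, the widest replicate gap among the 4 genes. The mean was 64.5% of WT, or -0.63 ± 0.12 (SE) as a log2 fold change over 2 libraries a group, and each OGT-depleted library was at 59.2% to 70.6% of each WT library. The authors' deposited table gives an adjusted p of 0.00430. RefSeq has 1 gene, the pseudogene RN7SKP70, that overlaps CLK4. Counting error alone was at most 3.28% for a single CLK4 library, against at most 1.20% for the other 3 genes.

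CCNL2 (ENSG00000221978, chromosome 1, 1321091 to 1334708, minus strand, hg19) came next to SF3B1 in reads among the 426 genes. Its normalized counts were 18629 and 18609 in OGT-depleted cells, against 27433 and 27951 in WT cells. The OGT-depleted libraries differed by 0.108% of their mean and the WT libraries by 1.87%, while the groups stood 8804 normalized counts apart. The mean was 67.2% of WT, or -0.57 ± 0.12 (SE) as a log2 fold change over 2 libraries a group. The authors' deposited table gives an adjusted p of 0.00043. RefSeq names a pseudogene CCNL2P1, so the assignment of reads between these copies is uncertain too.

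Per length, the order of the 4 levels was SF3B1, CCNL2, SRSF10 and CLK4 in every library. SF3B1 had 356.8 and 401.2 FPKM in OGT-depleted cells, against 594.4 and 629.0 FPKM in WT cells. CCNL2 had 222.1 and 231.4 FPKM in OGT-depleted cells, against 320.4 and 345.5 FPKM in WT cells. SRSF10 had 87.6 and 94.5 FPKM in OGT-depleted cells, against 124.3 and 128.8 FPKM in WT cells. The values of these 3 genes did not overlap within a group. CLK4, the kinase, had 13.3 and 13.2 FPKM in OGT-depleted cells, against 21.0 and 19.5 FPKM in WT cells. Among the 426 genes SF3B1 ranked 9 by mean FPKM in OGT-depleted cells and 3 in WT cells, CCNL2 16 and 7, SRSF10 38 and 26, and CLK4 193 and 150. The 4 genes together held 0.293% and 0.319% of counted reads in the OGT-depleted libraries, against 0.457% and 0.485% in the WT libraries.

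**Figure D1:**
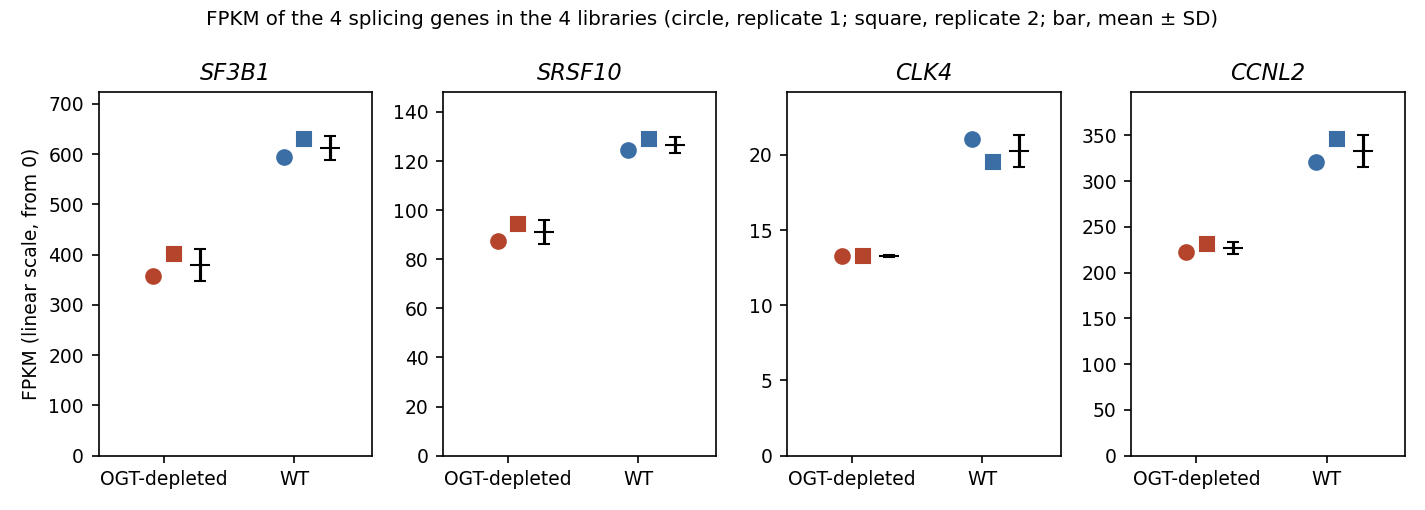
FPKM of SF3B1, SRSF10, CLK4 and CCNL2 on linear axes from 0 in the 2 OGT-depleted libraries (left of each panel) and the 2 WT libraries (right), with the mean ± SD beside each pair. In each panel both OGT-depleted points lie below both WT points, for SF3B1 at 356.8 and 401.2 FPKM in OGT-depleted cells against 594.4 and 629.0 FPKM in WT cells.

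**Figure D2:**
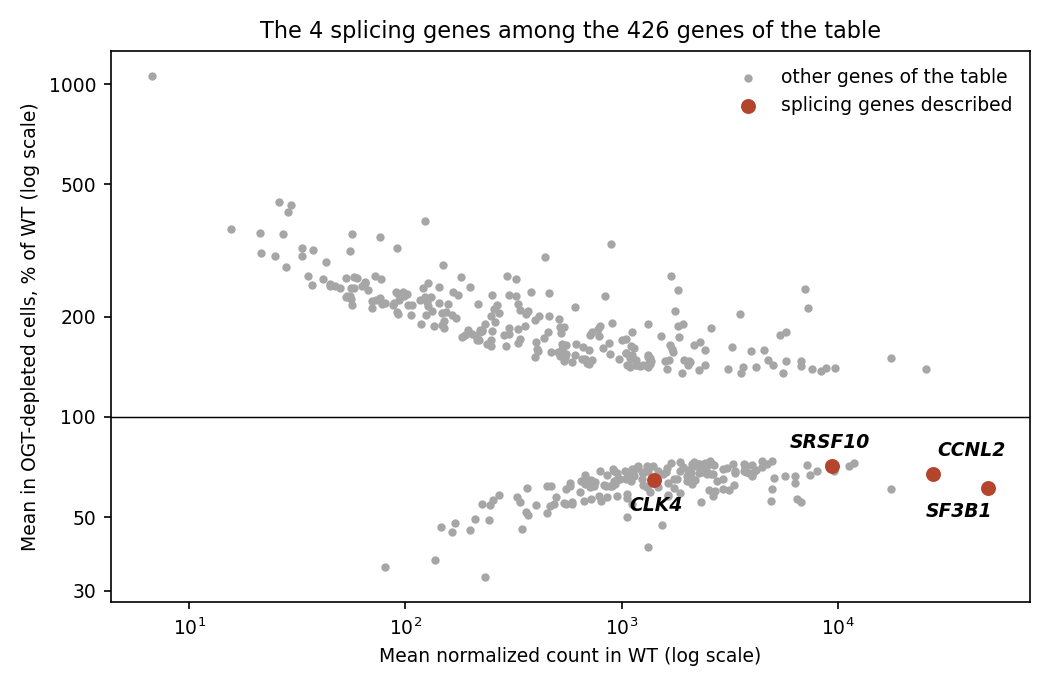
Mean normalized count in OGT-depleted cells as a percentage of WT, against the mean normalized count in WT, for all 426 genes of the deposited table, both axes on a log scale. No gene of the table lies near 100%, since it holds called genes; SF3B1 at 61.1% and CCNL2 at 67.2% are the 2 genes with the most reads in WT, and CLK4 at 64.5% lies in the middle of the lower genes.

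SF3B1 had the largest decrease of the 4 genes, at 61.1% of WT, and SRSF10 the smallest, at 71.0%. Of their 6 pairs, 3 had a ratio of normalized counts that did not overlap between the groups, and the same held for 42.1% of the 15051 pairs among the other 174 lower genes, so nothing is read from that count. The FPKM ratio of SF3B1 to SRSF10 was 4.07 and 4.25 in OGT-depleted cells, against 4.78 and 4.88 in WT cells. That of SF3B1 to CCNL2 was 1.61 and 1.73 in OGT-depleted cells, against 1.86 and 1.82 in WT cells. SRSF10 to CCNL2 was 0.394 and 0.408 in OGT-depleted cells, against 0.388 and 0.373 in WT cells. The ratios that involve CLK4 overlapped between the groups. The differences in log2 ratio between groups, -0.22 for SF3B1 to SRSF10 and -0.14 for SF3B1 to CCNL2, are a description of genes chosen by this contrast.

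The wider splicing machinery was read from 8 lists with 238 gene symbols, some of them older names of the same gene. Of these, 7 were in the table (2.94%, beside 3.24% called in either direction and 1.35% called lower over all genes the authors tested), and all 7 were lower. The lists do not hold every splicing-related gene of the table. Outside them, AKAP17A and the abundant YBX1 were higher, at 174% and 139% of WT. RBM17, C1orf63 and CCAR1 were lower, at 63.3%, 66.7% and 72.0%. These are examples, and other such genes may be left out. Leaving out the 4 genes above, 3 of 234 symbols were in the table (1.28%, beside 1.35% called lower over all tested genes). These shares have unlike bases, since the symbols hold older names and may hold genes that were not tested. Only genes in the table were left out, which lowers the share, so nothing is read from it. The 3 symbols were 2 of the SR proteins and SR-related factors, ARGLU1 and SREK1, and 1 of the SR protein kinases, SRPK3. No gene was in the table from the lists of U1 snRNP (12 symbols), tri-snRNP and catalytic spliceosome (41), Sm and LSm proteins (19), hnRNPs and other regulators (60), or exon junction complex and nonsense-mediated decay (15). SF3B1 was the entry from the list of U2 snRNP and branch site factors (27).

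ARGLU1, an arginine- and glutamate-rich splicing regulator, had 3321 and 3335 normalized counts in OGT-depleted cells, against 5019 and 5124 in WT cells. Its mean was 65.6% of WT, with -0.61 ± 0.11 (SE) as its log2 fold change and no overlap of the groups. SREK1, an SR-related regulator, had 6277 and 6981 in OGT-depleted cells, against 9430 and 9853 in WT cells, at 68.8% of WT. SRPK3, an SR protein kinase known mainly from muscle, was far less abundant, with 149 and 168 normalized counts in OGT-depleted cells, against 254 and 289 in WT cells. Its mean was 58.3% of WT, and its adjusted p of 0.0491 in the authors' deposited table is close to the limit. MGEA5, which encodes OGA, had 2355 and 2714 in OGT-depleted cells, against 3567 and 3805 in WT cells, and stood at 68.8% of WT.

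**Figure D3:**
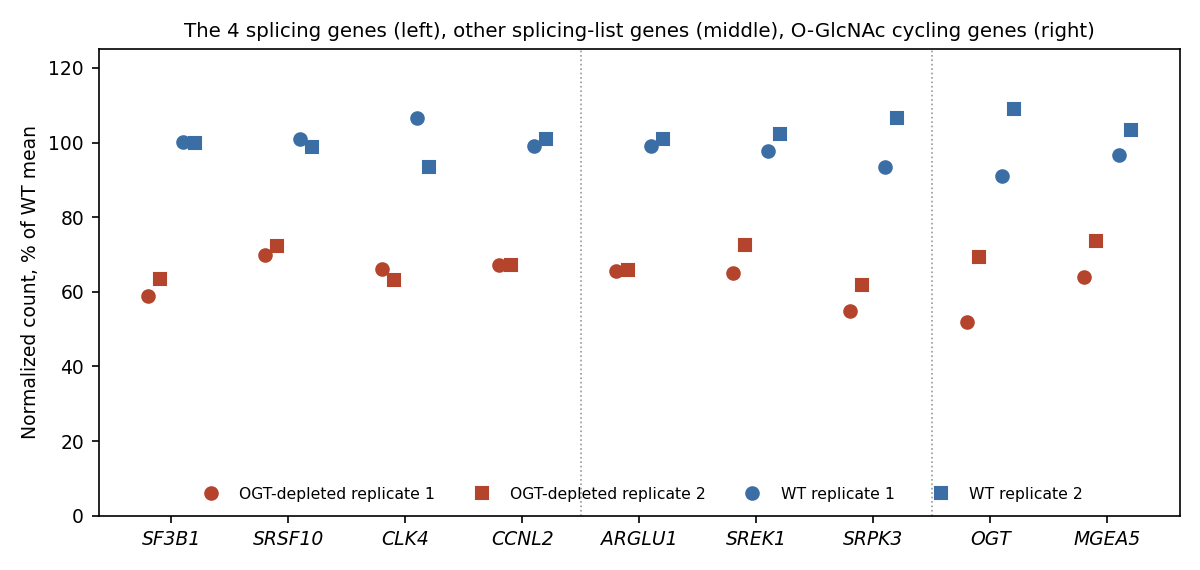
Normalized count in each library as a percentage of the WT mean of the same gene for SF3B1, SRSF10, CLK4 and CCNL2 (left), ARGLU1, SREK1 and SRPK3 (middle), and OGT and MGEA5 (right); OGT-depleted libraries stand left of WT libraries within each gene. OGT replicates are farther apart (28.7% of the mean in OGT-depleted cells and 18.1% in WT cells) than those of CCNL2 (0.108% and 1.87%).

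The genes whose values over the 4 libraries were most like the mean of the 4 splicing genes were FAM171A1, SLC4A11, ARGLU1, BHLHE40 and STK17B. Likeness was the Euclidean distance between log2 normalized counts, each less its mean over the 4 libraries, and the distances were 0.0367, 0.0517, 0.0566, 0.0567 and 0.0646. For comparison the distance of the 4 genes to their own mean was 0.0632 for CCNL2, 0.110 for SRSF10, 0.120 for CLK4 and 0.130 for SF3B1, and OGT lay at 0.378. ARGLU1, a splicing regulator, was thus nearer to that mean than any of the 4. SLC4A11 is a membrane transporter, BHLHE40 a transcriptional repressor and STK17B a serine/threonine kinase; they stood at 65.2%, 66.9% and 68.9% of WT, and FAM171A1 at 65.3%. With 4 libraries in 2 groups, genes of a similar fold change and small replicate spread will come close to each other.

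The annotation of the transcripts is a property that the naming rule did not use. The rule takes gene families, however, and the other genes with such names were not compared. In GENCODE release 29, each of the 4 genes had at least 1 transcript classed as a retained intron and at least 1 classed as a target of nonsense-mediated decay. CCNL2 had 9 and 4 such transcripts of 20, CLK4 had 7 and 3 of 15, SF3B1 had 5 and 1 of 12, and SRSF10 had 2 and 2 of 16. Both classes were present in 41.5% of the 164 lower protein-coding genes of the table, the 4 genes among them, and in 19.4% of the 222 matched higher ones. Over the 19951 protein-coding genes of the release the share was 25.1%. Among the other genes named above, SREK1 had both classes, OGT had 5 retained-intron transcripts of 11 and ARGLU1 had 1 of 4, while MGEA5 and SRPK3 had none. Since MGEA5 is known to retain an intron, the annotated class does not hold every such transcript. Of the non-splicing genes most alike in their values, SLC4A11 had both classes (2 and 2 of 13), BHLHE40 had 2 retained-intron transcripts of 3, and FAM171A1 and STK17B had none. The 4 genes also had more annotated transcripts (median 15.5) than the lower genes (median 9), and a gene with more annotated transcripts has more chances to hold each class.

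The splice sites of CLK4 introns 3 and 4 are shown because these introns flank a single exon and each is kept in 2 annotated retained-intron transcripts. Introns are numbered on transcript CLK4-201 and lie in its coding region on the minus strand of GRCh38. Intron 3 is chr5:178617435-178618555 (1121 bases, 31.9% G and C) and intron 4 is chr5:178616949-178617343 (395 bases, 30.4% G and C). The 5′ sites give 3 exon bases in lower case and the first 6 intron bases in capitals, and the 3′ sites give the last 30 intron bases with the final 3 in capitals.
CLK4 intron 3, 5′ site: tcgGTATGA
CLK4 intron 3, 3′ site: gatcttggtgctgcccacttgccgttcCAG
CLK4 intron 4, 5′ site: gatGTATAG
CLK4 intron 4, 3′ site: cttacacctctttttccctcctcactcTAG

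Pyrimidines made up 70.0% of the 20 bases before the final 3 in intron 3 and 95.0% in intron 4. The same comparison of transcripts found introns 6 and 7 of CCNL2 (transcript CCNL2-203) within a single retained-intron transcript, 115 and 426 bases long. Intron 5 of SF3B1 (transcript SF3B1-202, 307 bases, not within its coding region) was also kept in 2 such transcripts. Introns 11 and 12 of CLK4 were each kept in 1. The comparison took introns of coding transcripts that lay within a single exon of a retained-intron transcript. They had to be at least 50 bases long and run from GT to AG. No intron of SRSF10 was found in this way. CCNL2 has 9 annotated retained-intron transcripts, so the introns given are not every annotated one. The deposited values are 1 count per gene and library, so spliced, intron-retaining and decay-prone transcripts of SF3B1, SRSF10, CLK4 and CCNL2 cannot be told apart in them.

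The decreases kept their direction under each alternative scaling, tool, block and omitted library tried, while the calls of the refit did not hold in all of them. Since the groups did not overlap in any gene of the table, leaving out a library could not have turned a direction. With either WT library left out, the refit called 0 of the 4 genes, against 4 with all libraries. The loss ran through the table: lower calls over all 426 genes were 21 without WT replicate 1 and 5 without WT replicate 2, against 136 with all libraries. The 4 genes' log2 fold changes then ran from -0.72 to -0.48, and all 4 had an unadjusted p under 0.05 (edgeR). The lone WT library was assumed to vary like the OGT-depleted libraries. CLK4 also missed the threshold without OGT-depleted replicate 2 (adjusted p = 0.0520, edgeR), and SRSF10 and CCNL2 missed it when libraries were scaled to their totals (adjusted p = 0.0563 and 0.0790, edgeR). DESeq2 with the same size factors called all 4. With DESeq2 size factors computed from the 426 genes alone, which moved the median log2 fold change of all of them by -0.49, the log2 fold changes were -1.20 for SF3B1, -0.98 for SRSF10, -1.12 for CLK4 and -1.06 for CCNL2.

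**Figure D4:**
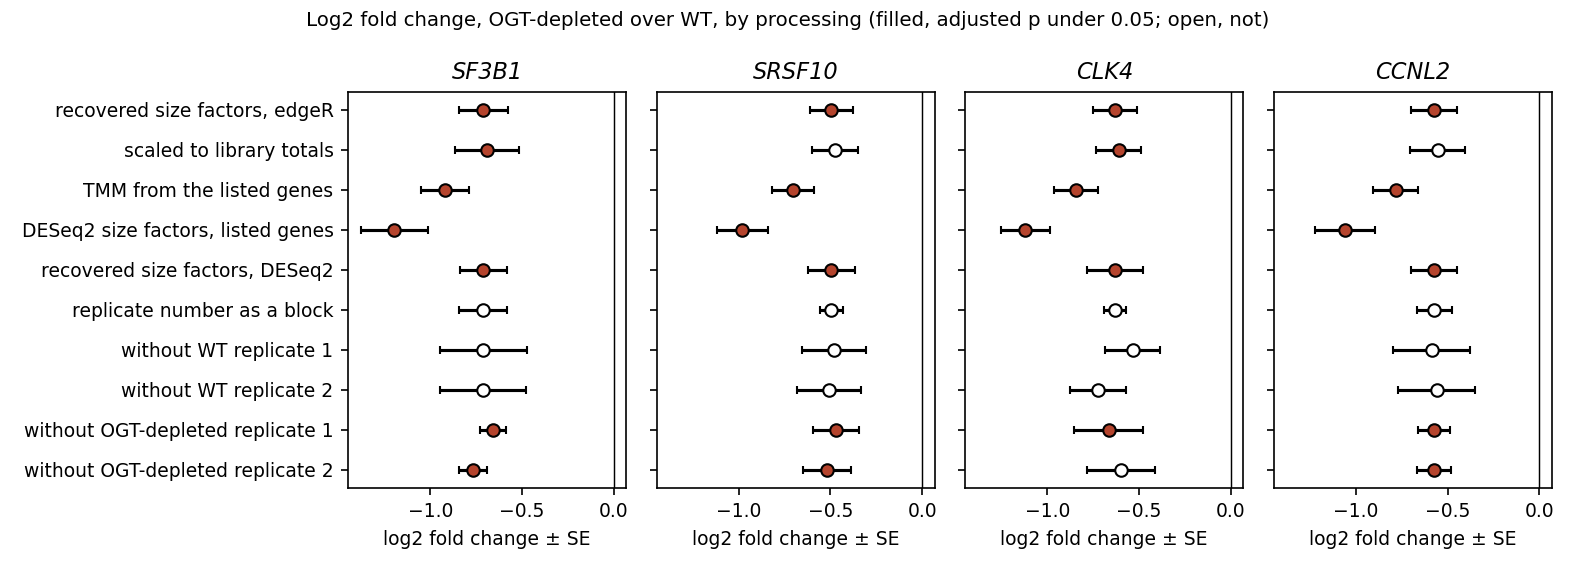
Log2 fold change ± SE, OGT-depleted over WT, of SF3B1, SRSF10, CLK4 and CCNL2 under 10 settings; filled points had an adjusted p under 0.05. All points lie below 0, between -1.20 and -0.47, and open points are those with 1 WT library, with the replicate number as a block, with library totals for SRSF10 and CCNL2, and without OGT-depleted replicate 2 for CLK4.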

How the data were processed

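Counts per gene were deposited by the authors as raw reads. Their FPKM values divide each count by the deposited gene length and by the counted reads, as recomputing them from the table showed. The authors' group means are a signal: counts over a size factor per library, then averaged. Log2 fold changes, p-values and adjusted p-values credited to the deposited table are the authors'. The submitters' processing notes give hg19 as the build and list STAR 2.5, CASAVA 1.8, DESeq2 and TopHat, with no roles. No source used here gives the read counter, annotation or strand setting, so antisense or overlapping reads cannot be told apart. The treated columns are headed OGTi and were matched to the CR_OGT titles by number.

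Solving the group means gave size factors of 1.06 and 1.04 for OGT-depleted replicates 1 and 2 and 0.950 and 0.971 for WT replicates 1 and 2. About 13154 genes had been tested, from the deposited adjusted p times rank over p. All 426 genes were fitted together with edgeR 4.0.16 (glmQLFit, glmQLFTest) in R 4.3.3, with library sizes proportional to the size factors and Benjamini-Hochberg adjustment over 13154 genes. Each passed filterByExpr, and dispersions rest on genes that had been called (common coefficient of variation 9.90%). SE was obtained from the fold change and the F statistic. DESeq2 1.42.0, other scalings, a replicate block and leaving out each library were alternatives. Genes named were the 4 that match the naming rule, all entries from the splicing and O-GlcNAc lists, and the 5 most alike. The genes and lists were chosen with earlier results of these data known. Promoters are from RefSeq (GRCh38.p14) and transcripts from GENCODE 29; all 4 genes matched both, and no coordinates were converted between builds.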

Additional observations from a re-analysis of the deposited data

How the results depend on the processing

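The log2 fold changes of the 4 genes stayed below 0 under each alternative, and 0 of them were called higher in any (edgeR and DESeq2). Leaving out a library could not have changed this, since the groups did not overlap in any gene of the table. The number called lower was 4 as reported; it was 2 with library totals and ran from 0 to 4 when each library was left out in turn, being 4 without OGT-depleted replicate 1, 3 without OGT-depleted replicate 2, 0 without WT replicate 1 and 0 without WT replicate 2. Over all 426 genes the lower calls were 136 as reported, 135 with library totals, and 97, 122, 21 and 5 without those 4 libraries in the same order. The cause was not tested. Adjusted p-values without a WT library lay between 0.0771 and 0.720 (edgeR). With the replicate number as a block 0 were called (adjusted p from 0.0627 for CLK4 to 0.264 for SF3B1, 4 with an unadjusted p under 0.05, edgeR), as were 0 of all 426 genes; the labels do not pair equal numbers, and the deviations of same-numbered libraries had a correlation of 0.495 across genes in these 2 pairs. TMM and DESeq2 factors taken from the 426 genes moved the median log2 fold change of all genes by -0.21 and -0.49, gave 135 higher and 178 lower and 77 higher and 178 lower calls, against 214 and 136 as reported, and kept all 4 genes called. The log2(FPKM) difference of CCNL2 was -0.55 with a pseudocount of 1 or 0.1, against -0.57 from counts. DESeq2, no filter and adjustment over the 426 genes alone kept the 4 calls. Counting error was at most 3.28% of a library's count for each of the 4 genes; no other depth was tried.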
